A study of Homo sapiens with 6 samples.

Results

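The 26S proteasome is the protease that breaks down proteins tagged with ubiquitin. Its 20S core is a barrel of alpha rings (PSMA genes) and beta rings (PSMB genes), and the beta subunits PSMB5, PSMB6 and PSMB7 carry the cutting sites. The 19S particle sits on the core and holds ATPases (PSMC genes), which unfold the substrate, and non-ATPase subunits (most PSMD genes), which bind and remove ubiquitin. Other activators (PSME genes), an inhibitor (PSMF1) and assembly chaperones (PSMG genes and a few PSMD genes) act on the same core. The genes described here are all genes of the deposited table whose symbol consists of PSM, a letter from A to G and a number. There were 48 of them among 58825 genes, and the rule uses the symbol alone.

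RNA-seq was performed on 6 samples of PANC-1, a human cell line from a pancreatic carcinoma. In 3 samples the cells received maslinic acid (MA), a plant triterpenoid, at 40 μM for 24 h (MA PANC-1 1 to 3), and 3 samples were untreated (PANC-1 1 to 3). All samples are of 1 line. The study's general methods name DMSO as the treatment given in place of MA, but whether the sequenced controls received this vehicle is not given in the sources used here. The sum of the estimated counts ran from 56978375 in MA PANC-1 1 to 70275355 in PANC-1 1, more than the reads that the study lists for each sample. The 6 markers of the line fixed for this work differed widely. VIM lay between 521 and 754 FPKM, KRT18 between 278 and 338 and KRT8 between 141 and 225. KRT7 lay between 1.40 and 2.19 FPKM, and KRT19 and EPCAM did not exceed 0.132 FPKM. FPKM is the number of fragments per kilobase of the gene, scaled to the depth of the sample. The 3 immune, 2 endothelial, 2 acinar and 2 islet markers stayed below 0.1 FPKM in every sample, and of the 2 fibroblast markers COL1A1 lay between 2.64 and 5.96 FPKM and DCN did not exceed 0.0107.

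MA PANC-1 2 stood apart from the other samples. On the leading principal component of log2 CPM (26.4% of the variance) it lay at −73.6, and MA PANC-1 1 lay at −29.5. MA PANC-1 3, at 16.2, lay next to the 3 untreated samples, which lay between 18.05 and 44.9. MA PANC-1 2 gave the lowest value for 17 of the 45 proteasome genes tested (37.8%) and the highest value for 16 of them (35.6%). Over all 17774 genes tested these shares were 35.1% and 21.4%. For a number of the genes below, values are also given without this sample.

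Of the 48 genes, 45 averaged 0.1 FPKM or more and were tested. PSMA8, the testis form of an alpha subunit, and PSMB11, the thymus form of a beta subunit, had no count in any sample. PSMB8, an interferon-inducible beta subunit, stayed under the limit. The median level of the 45 genes was 28.7 FPKM, against 2.49 FPKM for all genes tested, and 10 of the 45 reached a mean of 100 FPKM.

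After MA, no gene of the proteasome passed an adjusted p-value of 0.05 (edgeR's quasi-likelihood test with Benjamini-Hochberg adjustment over 17774 genes), a threshold that 0.0394% of all genes tested passed. None reached the DEG thresholds of the study, a change of 2-fold or more either way with an unadjusted p-value under 0.05, which 1.92% of all genes tested reached. In bulk RNA, a change in the mix of cells and a change in RNA per cell cannot be told apart. At an unadjusted p-value under 0.05, PSMB3, PSMB6 and PSME3 were higher after MA and PSMA4 was lower. These 4 are 8.89% of the 45 genes, against 11.2% of all genes tested (5.37% higher and 5.86% lower). DESeq2 gave 3 genes at that threshold, PSMB3 higher and PSMA4 and PSMD7 lower (12.1% of all genes), and none past the adjusted one. The count was 3 with the replicate number as a block (12.5% of all genes). It was 3 without MA PANC-1 2 (10.3% of all genes), 11 without MA PANC-1 3 (18.1%), 2 without PANC-1 1 (6.63%), 2 without PANC-1 3 (6.76%) and 0 without PANC-1 2 (7.72%).

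The changes were small for most of the genes. The 95% interval of the log2 fold change lay within 2-fold in either direction for 45 of 45 genes, against 62.5% of all genes tested, which are mostly less abundant. The log2 fold change itself was within 0.25 of 0 for 35 of the 45 genes (77.8%), against 54.5% of all genes tested. The median log2 fold change of the 45 genes was 0.081, against −0.0017 for all genes tested, with 31 above 0 and 14 below. It was 0.035 without MA PANC-1 2, with 30 above 0, and 0.044 in limma with a pseudocount of 0.1, with 27 above 0. In 11 genes the FPKM of the groups did not overlap. In 7 of them (15.6%) MA was above (PSMB1, PSMB3, PSMB6, PSMD3, PSMD8, PSMD13 and PSME1), against 8.79% of all genes tested, and in 4 (8.89%) it was below (PSMA4, PSMD6, PSMD7 and PSMD12), against 11.1%. For 3 samples against 3, no overlap gives p = 0.1 in an exact two-sided permutation test, the smallest p that this design allows.

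**Figure D1:**
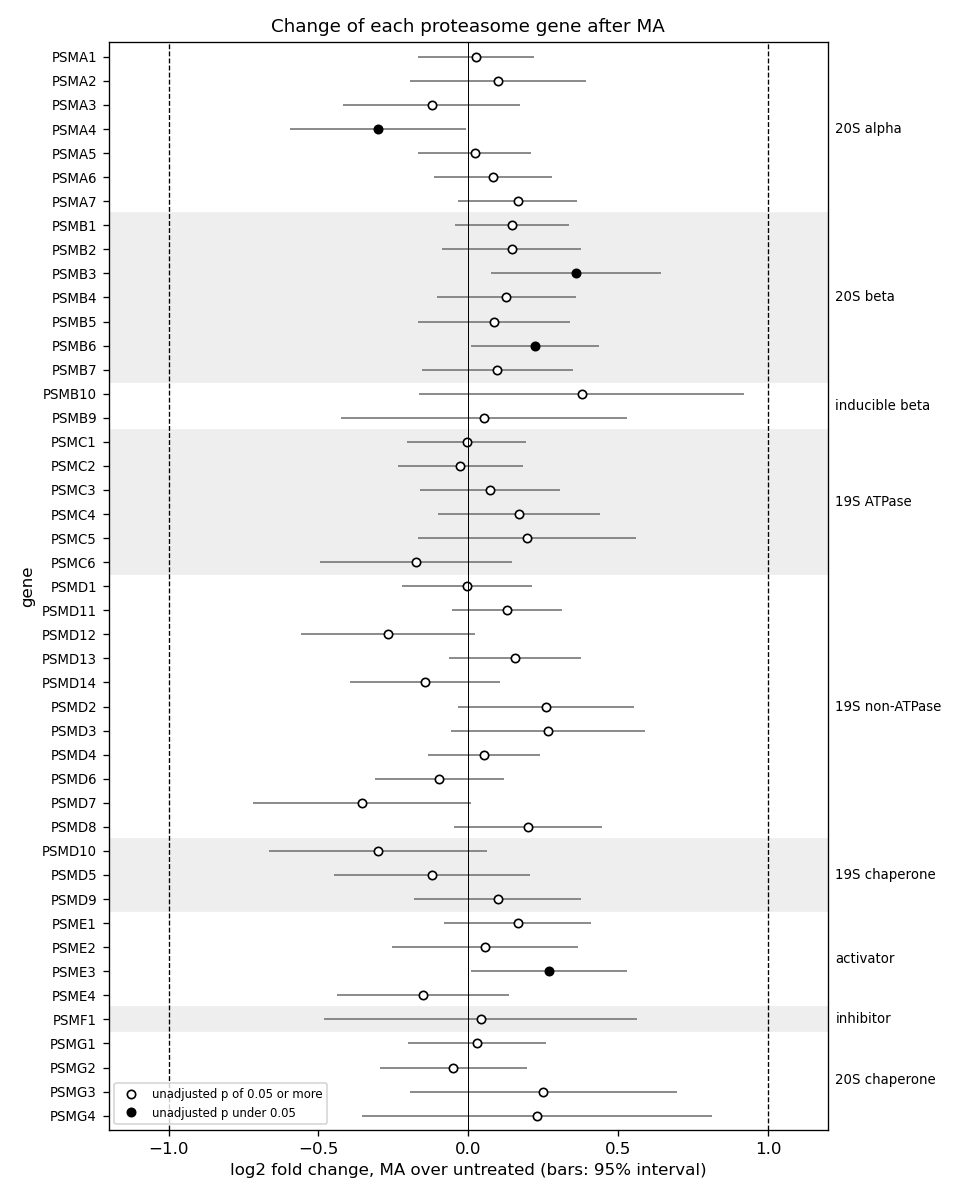
Log2 fold change, MA over untreated, of the 45 proteasome genes tested (x axis), by gene and class (y axis). Points are edgeR estimates from 3 samples against 3, bars are 95% intervals, filled points have an unadjusted p under 0.05, and the dashed lines mark 2-fold; no bar reaches a dashed line, and all 7 genes of the beta ring lie right of 0.

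The 7 genes of the beta ring lay on the same side of 0. All 7 had a log2 fold change above 0, from 0.085 (PSMB5) to 0.36 (PSMB3), with a median of 0.14, whereas 49.8% of all genes tested were above 0. Their summed level was 848, 889 and 785 FPKM in MA PANC-1 1, 2 and 3 and 756, 755 and 780 FPKM in samples 1, 2 and 3 of PANC-1. Each MA PANC-1 sample was thus above each PANC-1 sample, with MA PANC-1 3 nearest to them, and the ratio of the means was 1.101. Without MA PANC-1 2 the median log2 fold change of these genes was 0.067, with 6 of 7 above 0. All 7 were above 0 under the other normalizations and tests that were run.

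PSMB3 (ENSG00000277791, GRCh38 chromosome 17, 38752741 to 38764225), a structural beta subunit, had the smallest p-value of all the proteasome genes. Its level was 157, 171 and 143 FPKM in MA PANC-1 1, 2 and 3. In untreated PANC-1 it was 119, 121 and 139 FPKM. The groups did not overlap, but MA PANC-1 3 and PANC-1 3 differed by less than the spread within either group. The means were 157 ± 14.1 and 126 ± 10.9 FPKM (SD, n = 3), and the log2 fold change was 0.36 (standard error 0.12, unadjusted p = 0.0202, adjusted p = 0.426 from edgeR). The unadjusted p-value stayed under 0.05 in 12 of 12 alternatives that used all 6 samples. It was 0.0389 without MA PANC-1 2, where the log2 fold change was 0.25, and it was 0.0748 without PANC-1 1 and 0.0655 without PANC-1 2. In the same 12 alternatives with all 6 samples, the p-value stayed under 0.05 in 8 for PSMA4, 7 for PSMB6 and 7 for PSME3.

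The catalytic subunits of the constitutive core differed little between the groups. PSMB6 (ENSG00000142507, GRCh38 chromosome 17, 4796144 to 4798502), which cuts after acidic residues, was at 133, 138 and 127 FPKM in samples 1, 2 and 3 of MA PANC-1. In untreated PANC-1 it was at 120, 115 and 117 FPKM. The groups did not overlap, and the log2 fold change was 0.22 (standard error 0.090, unadjusted p = 0.0427, adjusted p = 0.439 from edgeR), with an unadjusted p of 0.0525 and a log2 fold change of 0.15 without MA PANC-1 2 and an unadjusted p of 0.0565 with the replicate number as a block. Of the 6 fits that left out a sample, 1 kept its p-value under 0.05, the one without MA PANC-1 3. PSMB5, which cuts after hydrophobic residues and is the main target of proteasome inhibitor drugs, had 72.9 ± 5.83 FPKM with MA and 70.6 ± 3.34 FPKM without (SD, n = 3), and the 95% interval of its log2 fold change ran from −0.17 to 0.34. PSMB7, which cuts after basic residues, had 136 ± 11.5 and 131 ± 2.92 FPKM (SD, n = 3), with an interval from −0.16 to 0.35. PSMB4, PSMB1 and PSMB2 had log2 fold changes of 0.13, 0.15 and 0.14 and unadjusted p-values from 0.116 to 0.235 in edgeR.

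The inducible subunits replace the catalytic ones in the immunoproteasome, the form that makes peptides for presentation on MHC class I. All 3 were at a low level in these cells beside the constitutive catalytic subunits, although PSMB10 and PSMB9 averaged more than the median of all genes tested, 2.49 FPKM. PSMB10 had 8.64, 6.03 and 7.55 FPKM in samples 1, 2 and 3 of MA PANC-1 and 4.44, 5.42 and 7.62 FPKM in samples 1, 2 and 3 of PANC-1. The groups overlapped, and the log2 fold change was 0.38 (standard error 0.23, unadjusted p = 0.143 from edgeR). It was 0.21 without PANC-1 1 and 0.61 without PANC-1 3 (unadjusted p = 0.0267). A gene that overlaps PSMB10 on the same strand was given counts equal to 21.8% of its own, so its level is uncertain. PSMB9 had 2.12, 2.91 and 2.83 FPKM with MA and 2.51, 2.99 and 2.29 FPKM without, with a log2 fold change of 0.052 (standard error 0.20, unadjusted p = 0.806 from edgeR). PSMB8 was listed at 0.0001 FPKM (no count), 0.0140 and 0.0148 FPKM in MA PANC-1 1, 2 and 3 and at 0.0289, 0.0669 and 0.101 FPKM in samples 1, 2 and 3 of PANC-1. These values rest on 8 estimated counts over the 3 MA PANC-1 samples and 55 over the 3 PANC-1 samples, and the gene was under the limit for testing. In a fit without that limit its log2 fold change was −2.63 (standard error 1.23, unadjusted p = 0.0649, adjusted p = 0.565 from edgeR).

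Set against the constitutive subunit that it replaces, PSMB10 stood at 5.49% ± 1.24 of PSMB7 with MA and at 4.46% ± 1.33 without (SD of FPKM ratios, n = 3). PSMB9 stood at 1.98% ± 0.340 of PSMB6 with MA and at 2.22% ± 0.334 without (SD, n = 3). The groups overlapped in both ratios. PSMB8 stood at 0.0136% ± 0.0118 of PSMB5 with MA and at 0.0923% ± 0.0506 without (SD, n = 3). PSMB8 was thus hardly detected in either group.

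**Figure D2:**
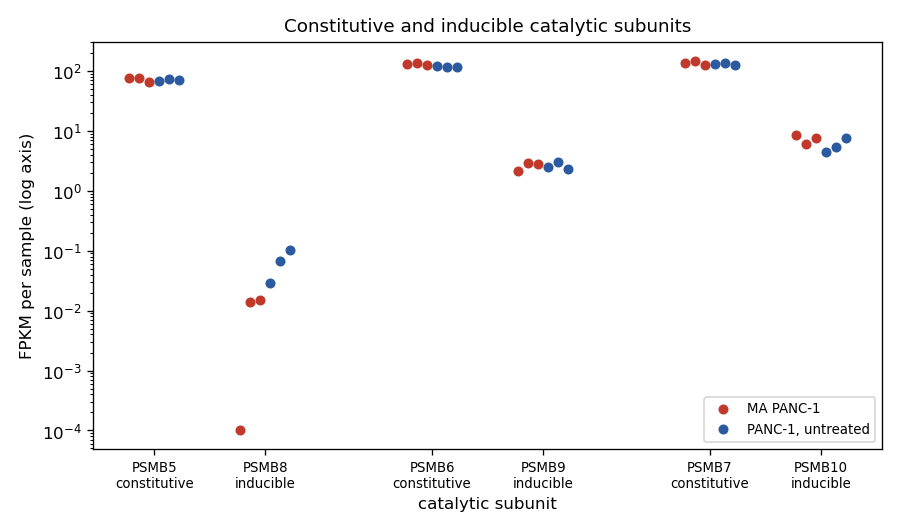
FPKM per sample on a log axis (y axis) of the 3 constitutive catalytic subunits and the inducible subunit that replaces each (x axis), in 3 MA PANC-1 samples (red) and 3 untreated PANC-1 samples (blue). PSMB5, PSMB6 and PSMB7 lie between 66.2 and 148 FPKM, PSMB9 and PSMB10 between 2.12 and 8.64, and PSMB8 between 0.0001, which stands for no count, and 0.101.

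Alpha ring genes, whose subunits gate the entry to the core, showed no common direction. Of the 7 tested, 5 were above 0 and 2 below, with a median log2 fold change of 0.026, and their summed level was 329 ± 22.1 FPKM with MA and 321 ± 15.4 FPKM without (SD, n = 3). PSMA4 (ENSG00000041357, GRCh38 chromosome 15, 78540405 to 78552417) was at 25.1, 18.7 and 27.6 FPKM in samples 1, 2 and 3 of MA PANC-1. In untreated PANC-1 it was at 29.1, 30.7 and 30.0 FPKM. The groups did not overlap, and MA PANC-1 2 was far below the other 5 samples. The log2 fold change was −0.30 (standard error 0.12, unadjusted p = 0.0448, adjusted p = 0.441 from edgeR), and −0.19 without MA PANC-1 2 (unadjusted p = 0.0382). With the replicate number as a block the unadjusted p was 0.0501, and in 4 of the 6 fits that left out a sample it was above 0.05. The highest FPKM of the ring was that of PSMA7, at 171 over all samples, and the lowest FPKM was that of PSMA3, at 15.9. Counts of PSMA6 are uncertain, since a gene overlapping it on the same strand was given counts equal to 21.0% of its own.

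The 6 ATPases of the 19S base were split evenly, 3 above 0 and 3 below, with a median log2 fold change of 0.033 and no unadjusted p-value under 0.05. They form a ring with a single copy of each, yet their mRNA levels ranged from 9.40 FPKM (PSMC6) to 977 FPKM (PSMC4). PSMC4 (ENSG00000013275, GRCh38 chromosome 19, 39971005 to 39981441) was at 991, 1134 and 938 FPKM in samples 1, 2 and 3 of MA PANC-1 and at 947, 935 and 921 FPKM in those of PANC-1. The groups overlapped, MA PANC-1 2 was the highest sample, and the log2 fold change was 0.17 (standard error 0.11, unadjusted p = 0.183 from edgeR), or 0.044 without MA PANC-1 2. PSMC4 had the 27th highest mean FPKM of all 58825 genes and was 3.83 times as high as PSMC3, the next proteasome gene at 256 FPKM. It alone made up most of the summed FPKM of the ATPases, which was 1396 ± 114 with MA and 1304 ± 14.9 without (SD, n = 3), and 376 ± 13.2 and 370 ± 3.40 without PSMC4. Of its neighbours, FBL, the methyltransferase of box C/D snoRNPs, was at 979 FPKM and lay 124.6 kb away. Within 500 kb, 25 genes had a mean of at least 1 FPKM and 2 of them, PSMC4 and FBL, exceeded 300 FPKM, as did 82 of 11470 such genes in the table. PSMC4 is counted here although the window was set around it for its high level. The nearest coding genes of at least 1 FPKM on either side, ZNF780B at 5.26 FPKM and FBL, differed widely, and the number of gene copies was not tested.

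The levels of different genes depend on the length by which the counts were divided. For the 12148 genes with at least 100 counts in every sample, that length was a median 1.19 times the combined length of all annotated exons, so the deposited FPKM understate genes with many long, rare exons. Divided by the longest protein-coding transcript in its place, PSMC4 was 3.98 times as high as PSMC3, PSMA7 was 5.89 times as high as PSMA3 (10.7 times in FPKM), and PSMD8 was 5.05 times as high as PSMD6 (15.7 times in FPKM). PSMC4 and PSMC3 were the highest and PSMD9, PSMB9, PSMB10 and PSMG4 the lowest of the 45 genes on both scales.

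**Figure D3:**
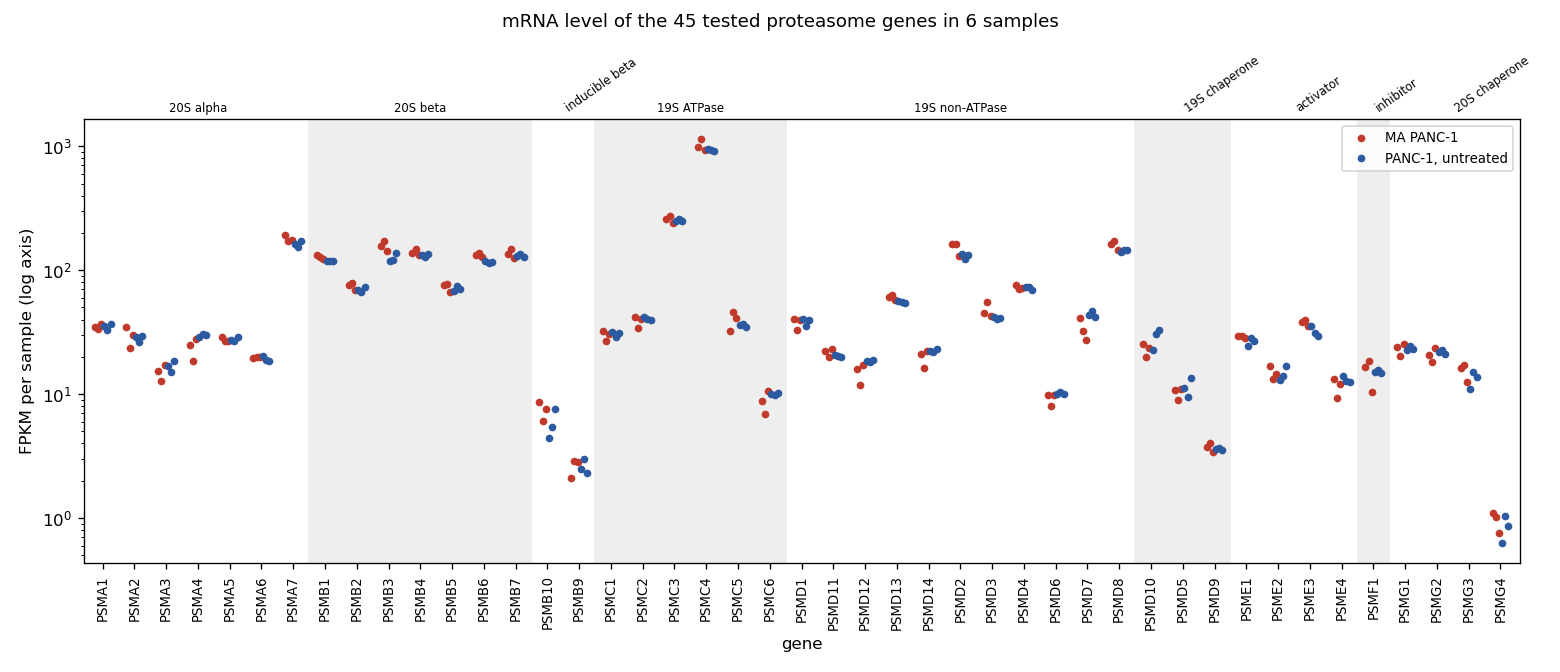
FPKM per sample on a log axis (y axis) of the 45 proteasome genes tested (x axis), grouped by class, in 3 MA PANC-1 samples (red) and 3 untreated PANC-1 samples (blue). PSMC4 lies near 977 FPKM, the beta ring genes lie together between 66.1 and 171 FPKM, and PSMG4 is lowest at 0.901 FPKM on average.

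The 11 non-ATPase subunits of the 19S particle moved in both directions, 6 above 0 and 5 below, with a median log2 fold change of 0.053. None had an unadjusted p-value under 0.05, yet the groups did not overlap in 6 of them, 3 with MA above and 3 with MA below (8.79% and 11.1% of all genes tested). PSMD7, the partner of the deubiquitinase PSMD14 in the lid, had the smallest p-value. It was at 41.2, 32.3 and 27.4 FPKM in samples 1, 2 and 3 of MA PANC-1 and at 43.7, 46.7 and 41.8 FPKM in samples 1, 2 and 3 of PANC-1. The groups did not overlap, although MA PANC-1 1 came within 1 FPKM of PANC-1 3, and the log2 fold change was −0.36 (standard error 0.15, unadjusted p = 0.0539, adjusted p = 0.451 from edgeR). With the replicate number as a block the unadjusted p was 0.0296, and the log2 fold change was −0.21 without MA PANC-1 3 (unadjusted p = 0.114) and −0.51 without MA PANC-1 1 (unadjusted p = 0.0113). PSMD8, a lid subunit, had the highest level of the class at 160 ± 13.1 FPKM with MA and 144 ± 2.69 FPKM without (SD, n = 3). PSMD6, also of the lid, had the lowest FPKM of the class, at 9.25 ± 1.05 and 10.1 ± 0.221 (SD, n = 3), though not by the length of the coding transcript. The log2 fold changes of PSMD8 and PSMD6 were 0.20 (unadjusted p = 0.0977) and −0.097 (unadjusted p = 0.323 from edgeR). Without MA PANC-1 2 they were 0.10 and −0.0398. With each library's trend with GC content taken out they were 0.0985 and 0.15, so PSMD6 changed sign.

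The 3 chaperones that assemble the 19S base, PSMD5, PSMD9 and PSMD10, summed to 36.9 ± 3.50 FPKM with MA and 43.9 ± 6.23 FPKM without (SD, n = 3), and the groups overlapped. PSMD10, also known as the oncoprotein gankyrin, was at 25.3, 19.96 and 23.4 FPKM in samples 1, 2 and 3 of MA PANC-1 and at 22.8, 30.6 and 33.1 FPKM in samples 1, 2 and 3 of PANC-1. PANC-1 1 lay among the MA PANC-1 samples, and the log2 fold change was −0.30 (standard error 0.15, unadjusted p = 0.0916 from edgeR). Without PANC-1 1 it was −0.45 (unadjusted p = 0.0117), and without PANC-1 3 it was −0.19 (unadjusted p = 0.286). PSMD9 was lowest of the 3 at 3.67 FPKM over all samples.

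Among the activators, PSME3, the nuclear PA28 gamma, was higher after MA at an unadjusted p-value under 0.05. It was at 38.1, 39.3 and 35.5 FPKM in samples 1, 2 and 3 of MA PANC-1. In untreated PANC-1 it was at 35.6, 31.4 and 29.3 FPKM. MA PANC-1 3 and PANC-1 1 had nearly the same value, so the groups overlapped, and the log2 fold change was 0.27 (standard error 0.11, unadjusted p = 0.0441, adjusted p = 0.440 from edgeR). It was 0.20 without MA PANC-1 2 (unadjusted p = 0.1018), and in 4 of the 6 fits that left out a sample the p-value was above 0.05. PSME1 and PSME2, the interferon-inducible PA28 alpha and beta, had log2 fold changes of 0.16 and 0.0545. PSME4, the nuclear activator PA200, had the lowest level of the 4, 11.5 ± 2.02 FPKM with MA and 13.1 ± 0.821 FPKM without (SD, n = 3), and a log2 fold change of −0.15 (unadjusted p = 0.251 from edgeR), or −0.051 without MA PANC-1 2. The 4 activators summed to 93.1 ± 3.73 FPKM with MA and 86.4 ± 0.747 FPKM without (SD, n = 3). In this sum, as in that of the beta ring, the groups did not overlap and MA was above. PSMF1, the inhibitor PI31, was at 16.7, 18.6 and 10.3 FPKM in samples 1, 2 and 3 of MA PANC-1 and at 15.1, 15.8 and 14.8 FPKM in samples 1, 2 and 3 of PANC-1. Its MA PANC-1 samples lay on both sides of the PANC-1 samples, and the log2 fold change was 0.041, or 0.27 without MA PANC-1 3 (unadjusted p = 0.0441) and −0.18 without MA PANC-1 2 (unadjusted p = 0.417).

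The 4 chaperones of the 20S core (PSMG1 to PSMG4) had log2 fold changes from −0.050 (PSMG2) to 0.25 (PSMG3), with none at an unadjusted p-value under 0.05. PSMG1 had the highest FPKM, 23.3 ± 2.58 with MA and 23.4 ± 0.853 without (SD, n = 3), though PSMG2 was higher by the length of the coding transcript. PSMG4 had the lowest, 0.960 ± 0.185 and 0.842 ± 0.206 FPKM (SD, n = 3). PSMG3 was at 15.3 ± 2.52 and 13.3 ± 2.12 FPKM (SD, n = 3), and its interval ran from −0.19 to 0.69 on the log2 scale. Without MA PANC-1 2 the log2 fold changes of PSMG3 and PSMG4 were 0.11 and 0.14, in place of 0.25 and 0.23.

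The position of MA PANC-1 2 was compared with the GC content of the transcripts. Over the 44 proteasome genes with a mean of at least 1 FPKM, the log2 ratio of MA PANC-1 2 to the mean of the other 2 MA PANC-1 samples correlated with the GC content of the longest coding transcript (Pearson r = 0.60, Spearman rho = 0.62 across genes, which share the libraries). Over all 10164 such genes the values were 0.59 and 0.75. In MA PANC-1 1 and 3 the same correlation over the proteasome genes was −0.27 and −0.48, and in PANC-1 1, 2 and 3 it was −0.30, 0.28 and 0.046. The 24 proteasome genes under 50% GC had a median log2 ratio of −0.27 in MA PANC-1 2, with PSMA4, PSMC6 and PSMD12 near −0.49, and the 20 genes of at least 50% GC had one of 0.14. After MA, 19 of these 20 GC-rich genes and 11 of the 24 others had a log2 fold change above 0 (medians 0.165 and −0.0051). Without MA PANC-1 2 the counts were 17 of 20 and 12 of 24 (medians 0.087 and −0.0016). With each library's GC trend taken out, an alternative chosen after seeing the data, they were 16 of 20 and 18 of 24 (medians 0.092 and 0.060). That correction, here and elsewhere in the text, used the GC content of each gene's longest transcript, coding or not. The GC value removed can therefore differ from the one correlated and split above. The median of the alpha ring was then 0.16 in place of 0.026, that of the non-ATPase subunits was 0.12 in place of 0.053 with 8 of 11 above 0, and PSMA2, PSMB1, PSMB3, PSMB6 and PSME3 were higher and PSMA4 lower at an unadjusted p-value under 0.05 (edgeR), against 13.9% of all genes in that fit. With the replicate block added, 8 of the genes were at that threshold, against 12.4% of all genes. Of these, 7 were higher (PSMA2, PSMA6, PSMB1, PSMB3, PSMC2, PSMD14 and PSME3) and 1, PSMD7, was lower. PSMA4 and PSMB6 were not among them (unadjusted p = 0.0663 and 0.0736 from edgeR).

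**Figure D4:**
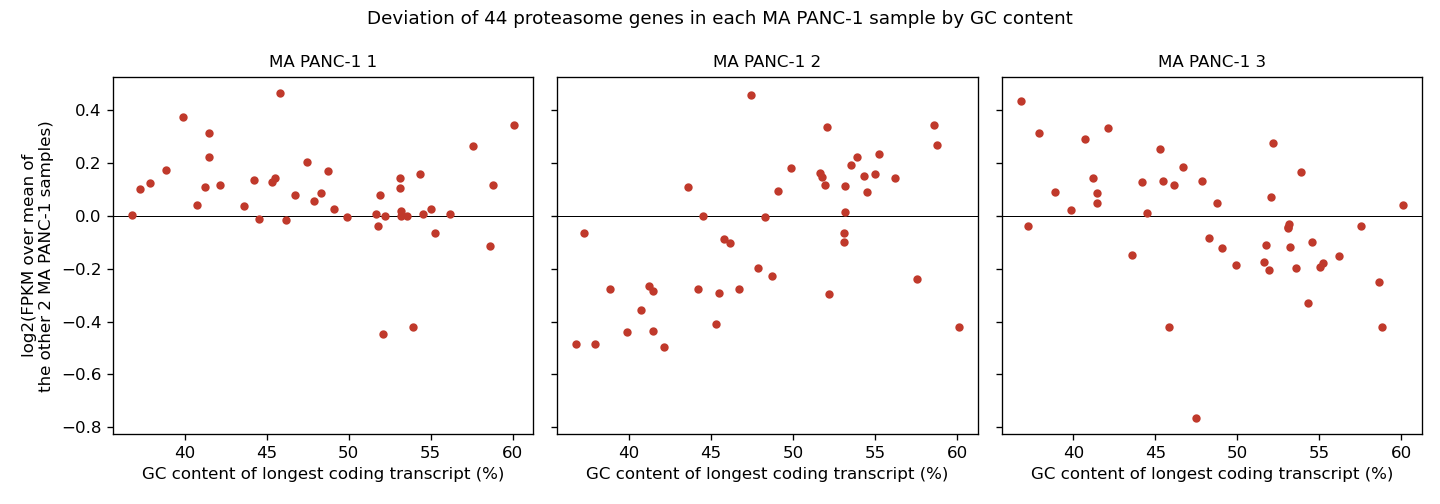
GC content of the longest coding transcript in percent (x axis) against the log2 ratio of each MA PANC-1 sample to the mean of the other 2 (y axis), for 44 proteasome genes; each point is a gene and each panel a sample. In MA PANC-1 2 the genes rise with GC content (Pearson r = 0.60), and in MA PANC-1 1 and 3 they fall (r = −0.27 and −0.48). The panels are not independent, since each ratio is taken to the samples of the other panels.

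The transcription factor NFE2L1 (NRF1) is known to raise proteasome genes when proteasome activity is short, through antioxidant response elements, and its relative NFE2L2 (NRF2) binds the same elements. NFE2L1 was at 58.4, 89.8 and 74.9 FPKM in samples 1, 2 and 3 of MA PANC-1 and at 80.0, 83.2 and 78.2 FPKM in samples 1, 2 and 3 of PANC-1. The MA PANC-1 samples lay on both sides of the PANC-1 samples, and the log2 fold change was −0.069 (standard error 0.17, unadjusted p = 0.699 from edgeR). It was −0.27 without MA PANC-1 2 (unadjusted p = 0.0522) and 0.090 without MA PANC-1 1. NFE2L2 was at 12.7, 9.52 and 14.6 FPKM with MA and at 16.1, 15.8 and 16.0 FPKM without, which did not overlap, with a log2 fold change of −0.35 (standard error 0.13, unadjusted p = 0.0342, adjusted p = 0.433 from edgeR). Without MA PANC-1 2 it was −0.23 (unadjusted p = 0.0324), and in 4 of the 6 fits that left out a sample the p-value was above 0.05. MAFK, a small MAF partner of both factors, was at 20.3, 24.2 and 19.7 FPKM with MA and at 16.7, 14.8 and 16.7 FPKM without. It did not overlap either and had a log2 fold change of 0.46 (standard error 0.13, unadjusted p = 0.00970, adjusted p = 0.388 from edgeR), with a p-value under 0.05 in each of the 6 fits that left out a sample.

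The core of the antioxidant response element, TGACNNNGC, was searched on both strands of the RefSeq promoter windows (GRCh38.p14), each from 250 bases before to 50 bases after a start site. Windows were found for 42 of the 48 genes, 51 in all. The letters occurred in 15 of these windows (29.4%), those of 15 genes, and in 13.3% of all 35116 windows. They were in 1 of 10 windows of the alpha ring and in 1 of 5 of the beta ring, where 4 of the 7 genes had a window. They were in 3 of 4 windows of the activators, 2 of 3 of the 19S chaperones and 2 of 4 of the 20S chaperones. The share in the other classes ran from 0% to 28.6%. Among the 15 genes were PSMB3 and PSMA4, which had the smallest unadjusted p-values above and below 0 in their rings, and PSMB9. They are shown on the strand that holds the letters, 5′ to 3′, with the 9 letters of the core in capitals and up to 10 bases on either side.
PSMB3: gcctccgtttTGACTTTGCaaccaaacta
PSMA4: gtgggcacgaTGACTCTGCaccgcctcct
PSMB9: ccgagacaagTGACGAGGCagccccgccc

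The stretch of PSMB3 is chr17:38752627-38752655 on the plus strand and ends its core 96 bases before the start site. That of PSMA4 is chr15:78540650-78540678 on the plus strand, 118 bases before the most downstream of its 3 RefSeq start sites and so inside the annotated span of the gene, and that of PSMB9 is chr6:32854034-32854062 on the minus strand, 140 bases before the RefSeq start site and also inside the annotated span of the gene, which is longer in the files. These 2 ring genes thus held the letters with log2 fold changes of opposite sign, 0.36 and −0.30. A match of letters describes the sequence and not binding.

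Other genes of the pathway were taken from a list of 52, of which 51 were tested. At an unadjusted p-value under 0.05, 3 were higher and 4 lower after MA (13.7%, against 11.2% of all genes tested), and none passed the adjusted threshold in edgeR. Beside MAFK and NFE2L2, STAT3, an inducer of beta subunit genes, was higher (log2 fold change 0.26, unadjusted p = 0.0191), as was HLA-C, an MHC class I heavy chain (0.42, unadjusted p = 0.0255 from edgeR). UCHL5, a deubiquitinase of the 19S particle, was lower (−0.41, unadjusted p = 0.0148), as were DDI2, the protease that activates NFE2L1 (−0.24, unadjusted p = 0.0327), and UBA6, an E1 ubiquitin-activating enzyme (−0.49, unadjusted p = 0.0445 from edgeR). In each of these 5 genes the groups did not overlap. Among all 51 genes tested of the list, MA was above without overlap in 6 and below in 4, against 8.79% and 11.1% of all genes tested. Without MA PANC-1 2, HLA-C had a log2 fold change of 0.27 (unadjusted p = 0.0584) and UBA6 one of −0.32 (unadjusted p = 0.0872). With the GC trend removed, UCHL5 was at −0.099 (unadjusted p = 0.312), DDI2 at −0.11 (unadjusted p = 0.286) and UBA6 at −0.22 (unadjusted p = 0.0626 from edgeR). With the replicate number as a block, DDI2 had an unadjusted p of 0.0617. Of the 6 fits that left out a sample, STAT3 and HLA-C were no longer under 0.05 in 4, DDI2 and UBA6 in 5 and UCHL5 in 1. The list held 2 such genes without MA PANC-1 1 (7.93% of all genes were at that threshold), without PANC-1 2 (7.72%) or without PANC-1 3 (6.76%). It held 3 without PANC-1 1 (6.63%) and 13 without MA PANC-1 3 (18.1%).

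None of the 8 maturation and base factors of the list had an unadjusted p-value under 0.05. ADRM1, the ubiquitin receptor RPN13, was at 138 ± 19.7 FPKM with MA and 117 ± 3.41 FPKM without (SD, n = 3), and its log2 fold change was 0.27 (unadjusted p = 0.0856 from edgeR), with MA PANC-1 2 the highest sample. It was 0.11 without that sample and 0.12 with the GC trend removed. POMP, the maturation factor of the 20S core, was at 63.5 ± 8.01 and 65.8 ± 0.417 FPKM (SD, n = 3), and its log2 fold change was −0.019. SEM1, a small lid subunit, was at 4.18 ± 0.372 and 4.35 ± 0.236 FPKM (SD, n = 3), and its log2 fold change was −0.024. With the GC trend removed, these last 2 had log2 fold changes of 0.30 and 0.33, at unadjusted p-values of 0.0271 and 0.0385. TAP1, the peptide transporter, and IRF1, an interferon-responsive activator of the inducible subunits, had log2 fold changes of 0.22 (unadjusted p = 0.144) and 0.25 (unadjusted p = 0.141 from edgeR), and their groups overlapped. Without MA PANC-1 2 these were 0.10 and 0.13, and under the replicate block TAP1 had an unadjusted p of 0.0429.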

How the data were processed

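The authors deposited, for each gene and sample, an FPKM value and an estimated count; the estimated counts are whole numbers that the authors did not normalize, and a gene without reads is listed by the authors at an FPKM of 0.0001. The libraries were stranded, poly(A) selected and read in pairs. The submitters' processing notes name cutadapt 1.9, HISAT2 2.0.4, StringTie 1.3.4d, edgeR and DESeq2 without their roles, and the genome build is not given in the sources used here. Gene positions of 47556 genes equal those of GENCODE release 29 (GRCh38). The counts, 56978375 to 70275355 per sample, are estimates that exceed the reads listed by the study, so precision rests on the spread between the replicates.

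The 17774 genes that averaged 0.1 FPKM or more were tested on their estimated counts by edgeR's quasi-likelihood method with TMM factors (edgeR 4.0.16, limma 3.58.1 and DESeq2 1.42.0 in R 4.3.3), with Benjamini-Hochberg adjustment over all of them. The proteasome genes, the 52 pathway genes and the markers were chosen with earlier results of these data known. Values are given for every proteasome gene with an unadjusted p-value under 0.05, for the highest level, lowest level and smallest p-value of each class, for the catalytic subunits, and for 7 pathway genes with up to 5 others in each direction; PSMC3, PSMB1, PSMB2, PSMB4, PSME1, PSME2, PSMG2, FBL, ZNF780B and the genes named for GC content, non-overlap or length were added after their values were seen. Promoter sequences are from RefSeq. Alternatives were other normalizations, tests, filters and counts, a replicate block, a GC correction, another gene length and leaving out each sample.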

Additional observations from a re-analysis of the deposited data

How the results depend on the processing

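No proteasome gene passed the adjusted threshold or the DEG thresholds under any of the 18 alternatives run on the test. The number at an unadjusted p-value below 0.05, reported as 4, was 8 with the GC trend removed together with the replicate block, and ran from 0 to 11 when each sample was left out in turn. For the pathway list, reported as 7, these values were 11 and 2 to 13. Whether the replicate numbers pair the samples could not be told. Deviations from the group means correlated at 0.029, 0.050 and 0.072 between samples of the same number. Between samples of different numbers the correlations ran from −0.0475 to −0.0013. Each sample thus correlated best with its own number, but all of these correlations were small. With the replicate block alone 3 proteasome genes had an unadjusted p-value under 0.05.

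The median log2 fold change of the alpha ring was 0.16 with the GC trend removed and 0.16 with the block added. That of the tested inducible subunits was 0.045 with no filter, which added PSMB8, and that of the 20S chaperones was 0.0089 with a filter at a mean FPKM of 1, which removed PSMG4. Leaving out a sample gave medians from 0.067 to 0.193 for the beta ring and from 0.029 to 0.205 for the 20S chaperones. The summed FPKM of the alpha ring, 1.03 times as high with MA, gave 0.946 by the median gene, and that of the non-ATPase subunits, 1.06, gave 0.925. On the gene strand alone the core letters were in 21.6% of the windows of the proteasome genes and in 6.90% of all promoter windows. POMP and SEM1 changed sign with the GC trend removed (0.30 and 0.33 on the log2 scale) and with the block added (0.29 and 0.32). Of the proteasome genes followed through every alternative, PSMA3, PSMC6 and PSMD6 also changed sign with the GC trend removed, to 0.16, 0.047 and 0.15. They were not the only ones. PSMC2 and PSMD14 had log2 fold changes of −0.026 and −0.14 in the main fit. With the GC trend removed and the block added, both were higher after MA at an unadjusted p-value under 0.05 (edgeR). Apart from the GC correction itself, the cause was not tested. With 3 samples in each group, no outlier test was made.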
